A study of Mus musculus with 9 samples.

Results

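The forkhead genes encode the Fox transcription factors, and 40 mouse genes of the family were followed here through the accessible chromatin of the early embryonic heart. A region belonged to a gene when the deposited list of accessible regions gave that gene's symbol, whatever gene the region acts on. By this rule, 34 of the 17164 distinct regions of the list were assigned to forkhead genes, and 17 of the 40 genes had at least 1 region. ATAC-Seq, which marks open DNA by the insertion of Tn5 transposase, had been performed on hearts and pharyngeal mesoderm dissected at E8.75, when 6 somites have formed. The 9 libraries made 3 groups of 3, from wt control embryos, Isl1-/- embryos and Isl1Cre+/-/ Brg1fl/fl embryos, the last of which lose the remodeler Brg1 in cells that have expressed Isl1-Cre, so that the other cells of the dissected tissue keep it. The values used here came from 1 list of regions common to the 3 control libraries, and the mutant groups were not analyzed here. For each region it holds a position, an assigned gene and the distance from the transcription start site (TSS) of that gene, and neither a height nor a value per library, so that no replicate error could be attached to any region and no test between samples was possible. Sequencing depth was unknown, and 95% Wilson intervals below cover counting error over genes or regions and not the spread between embryos.

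Fox proteins bind DNA through a winged-helix domain of about the same fold in every member, while the rest of the protein differs between subfamilies. FoxA proteins are the classic pioneer factors, which bind sites on nucleosomes in endoderm before other factors arrive. FoxC and FoxF proteins act in the mesoderm of the pharyngeal arches, the vessels and the gut wall, Foxh1 carries Nodal signals to DNA together with Smad proteins, and FoxO proteins are held in the cytoplasm when insulin signaling activates Akt. Genes of the family are grouped below by a main known site of action, although a gene can act at other sites and times. The groups are mesoderm (8 genes), endoderm (5), ectoderm and nervous system (9), broadly expressed (12) and cell types that mostly arise later (6).

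Forkhead genes had an assigned region in 42.5% of cases (17 of 40, interval 28.5 to 57.8%), beside 49.3% of the 21031 protein-coding genes of the reference table. A region with its center within 1 kb of the assigned TSS was found for 10 forkhead genes (25%, interval 14.2 to 40.2%), beside 40.6% of coding genes. Of the 17 genes with a region, 7 had none within 1 kb, whereas this applied to 17.6% of coding genes with a region. The 17 genes carried 2 ± 1.06 regions each (mean and SD over genes, median 2), compared with a mean of 1.49 and a median of 1 over the 11541 genes of the list, and 5 of them (29.4%) had 3 or more, compared with 10.6% of all genes in the list. No gene of the family had more than 4. None of these differences from the background was tested.

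The list held regions for 7 of 16 heart and pharyngeal marker genes, namely Fgf10, Gata4, Gata5, Hand2, Isl1, Mef2c and Tbx20. Nkx2-5, Tbx5, Myh6, Tnnt2 and Actc1 were among the 9 without. This share, 43.8% (interval 23.1 to 66.8%), was close to the 49.3% of all coding genes. Markers of other cell types that dissected tissue can hold also had regions, at 4 of 5 endothelial genes, 3 of 5 neural, 2 of 4 neural crest, 2 of 4 endodermal and 1 of 4 blood genes, each share with a Wilson interval that includes the same background. A region near a gene is not a measure of its expression, and the part of these cell types in the forkhead regions was not tested.

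The counts differed by site of action. No test was made of this grouping, which was chosen with earlier results of these data known. Among the 12 broadly expressed genes, 10 had a region (83.3%, interval 55.2 to 95.3%) and 7 had it within 1 kb of the TSS (58.3%, interval 32.0 to 80.7%), beside the 49.3% and 40.6% of coding genes given above. The second interval includes the background share. The tissue-restricted groups had fewer, with 2 of 8 mesoderm genes, 1 of 5 endoderm genes, 2 of 9 ectoderm and neural genes and 2 of 6 genes of later cell types. The Wilson intervals of these shares, 7.1 to 59.1%, 3.6 to 62.4%, 6.3 to 54.7% and 9.7 to 70.0% in that order, all include the 49.3%. Of the regions of the mesoderm, endoderm and ectoderm groups, 4 of 5, 3 of 4 and 4 of 4 lay over 10 kb from the TSS, and among these groups Foxc1 alone had a region within 1 kb under its own name. In the group of later cell types, 1 of 3 regions was over 10 kb away and both genes with a region had it within 1 kb.

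**Figure D1:**
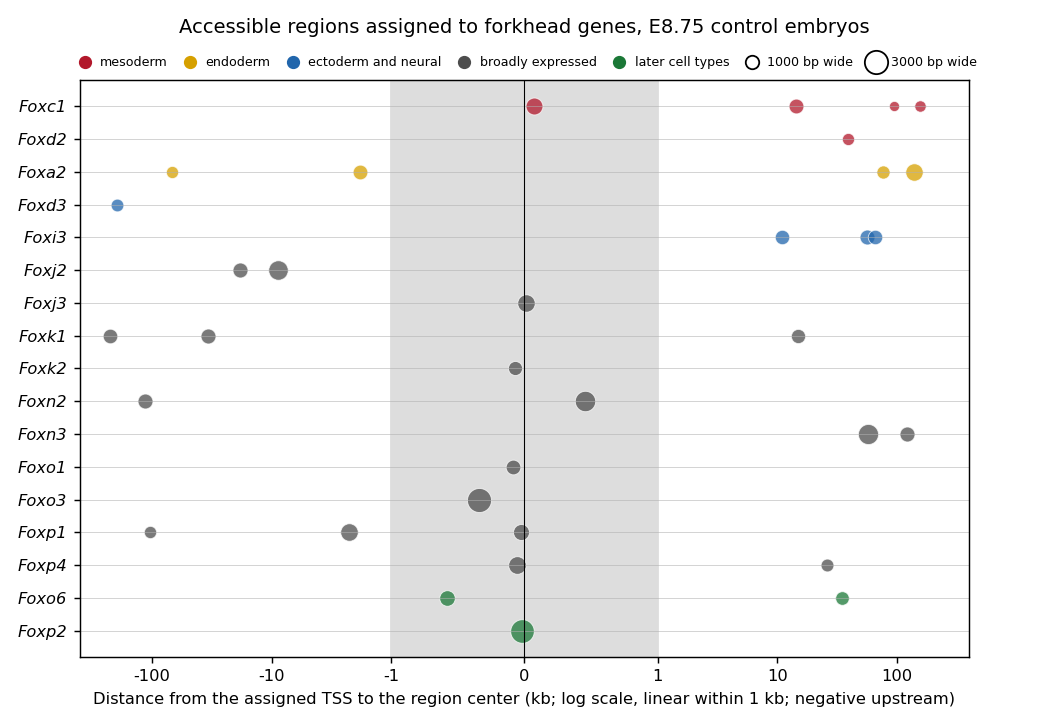
Accessible regions assigned to forkhead genes in control embryos, 1 row for each of the 17 genes with a region and 1 circle for each of the 34 regions. The horizontal axis is the distance in kb from the assigned TSS to the region center on a log scale that is linear within 1 kb (shaded), circle area grows with region width in bp, and colors give the site of action. Circles lie in the shaded band for 10 genes, and Foxa2, Foxd2, Foxd3, Foxi3, Foxj2, Foxk1 and Foxn3 have none there.

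The DNA just upstream of forkhead starts varied widely in CpG dinucleotides. Sequences of RefSeq for 250 bases before the start (GRCm38.p6) were at hand for 26 of the 40 genes, with 31 starts. They held a median of 17 CpG dinucleotides, beside a median of 6 and a 90th percentile of 25 over the 32851 promoters of the same table. Taking the start with the highest count for each gene, the 7 genes with a region within 1 kb of the TSS had a median of 31 (range 20 to 48), the 6 with regions elsewhere 20.5 (5 to 36) and the 13 with none 12 (3 to 22). The lowest counts were 3 at Foxi2 and 4 at Foxi1, both without a region. Foxc1 and Foxo1, whose starts were covered by a region, and Foxf2 and Foxd3, whose starts were not, are printed as examples of both kinds, and Foxf2 is near the top of the range for genes with no region. They hold 29, 20, 21 and 21 CpG dinucleotides, which are in capitals, and each run reads from 5′ to 3′ on the strand of the gene and ends at the base before the start.
Foxc1, chr13:31806396-31806645, + strand: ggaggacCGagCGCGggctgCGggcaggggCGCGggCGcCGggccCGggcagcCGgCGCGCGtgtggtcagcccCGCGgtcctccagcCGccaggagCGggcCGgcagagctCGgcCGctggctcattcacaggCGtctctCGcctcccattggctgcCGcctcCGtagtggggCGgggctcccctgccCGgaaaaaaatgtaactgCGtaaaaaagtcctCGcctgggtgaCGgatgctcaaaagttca
Foxo1, chr3:52268087-52268336, + strand: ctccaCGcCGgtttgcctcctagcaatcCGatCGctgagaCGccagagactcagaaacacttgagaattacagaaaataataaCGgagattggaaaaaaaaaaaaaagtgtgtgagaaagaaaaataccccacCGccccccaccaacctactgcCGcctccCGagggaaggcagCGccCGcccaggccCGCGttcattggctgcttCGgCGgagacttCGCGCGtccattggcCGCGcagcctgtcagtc
Foxf2, chr13:31625566-31625815, + strand: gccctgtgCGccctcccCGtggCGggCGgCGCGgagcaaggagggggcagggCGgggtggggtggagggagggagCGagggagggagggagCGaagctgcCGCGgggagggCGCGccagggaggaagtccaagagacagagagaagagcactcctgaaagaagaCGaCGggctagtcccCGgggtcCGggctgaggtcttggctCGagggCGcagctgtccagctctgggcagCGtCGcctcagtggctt
Foxd3, chr4:99656049-99656298, + strand: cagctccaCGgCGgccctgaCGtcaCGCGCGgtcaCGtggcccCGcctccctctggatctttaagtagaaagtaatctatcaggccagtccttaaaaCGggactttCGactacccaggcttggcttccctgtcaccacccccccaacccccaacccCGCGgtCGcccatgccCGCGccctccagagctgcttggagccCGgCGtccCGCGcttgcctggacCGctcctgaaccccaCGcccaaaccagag

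In the mesoderm group, Foxc1 had 4 regions and Foxd2 had 1. Foxc1 is a regulator of pharyngeal, cranial and vascular mesoderm and a single-exon gene of 3.99 kb on the plus strand (mm9 chr13:31898515-31902504). A region of 1579 bp (chr13:31897797-31899375) covered its start, with the center 71 bp inside the gene. The other 3 lay downstream at 14262, 93817 and 154036 bp from the TSS (chr13:31912176-31913379, chr13:31992049-31992615 and chr13:32052194-32052908). All 3 of these centers were in introns of Gmds, a gene of GDP-fucose synthesis and the next coding gene on that side. They measured 1204, 567 and 715 bp, and among the 6740 regions of the list over 10 kb from a TSS 81.7% were narrower than the first, 3.22% narrower than the second and 15.7% narrower than the third.

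Foxc1 ends a row of forkhead genes on chromosome 13. Foxq1 (chr13:31650039-31652839) and Foxf2 (chr13:31717685-31723272) precede it on the same strand, and neither had a region. The region nearest to both was that at the Foxc1 start, 248547 bp from the start of Foxq1 and 180901 bp from that of Foxf2. The related trio on chromosome 8, with Foxf1 (chr8:123608286-123610851), Foxc2 (chr8:123640071-123642792) and Foxl1 (chr8:123651840-123652929), had none. Foxf1 drives the splanchnic mesoderm of gut and lung, Foxc2 is the closest relative of Foxc1, and Foxl1 acts in gut mesenchyme. Their nearest regions were 416303, 448088 and 451127 bp away, the largest such distances among the 40 genes, and no region of any gene lay within 100 kb of the 3. The coding gene Mthfsd, which starts 7.78 kb from the Foxc2 start, lay in the same stretch, so the absence was not particular to forkhead genes. The rows differed, with 4 regions on chromosome 13, each assigned to Foxc1, and 0 on chromosome 8. This describes 1 consensus list of unknown depth, in which a locus without a region need not be closed.

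Foxd2, a gene of paraxial mesoderm and kidney, shows how the assignment shapes these counts. Its assigned region (814 bp, chr4:114542449-114543262) was 38648 bp downstream, in an intron of the noncoding gene 9130410C08Rik. A much wider region of 3024 bp (chr4:114580268-114583291) lay at the Foxd2 start, with its center 276 bp upstream, and was listed under Foxd2os, a noncoding neighbor whose TSS was 115 bp from the same center. The wide region covered the Foxd2 start all the same. Foxe3, the lens gene beside it, had no region, and this same region was its nearest at 16878 bp.

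For the other mesoderm genes no region was assigned. Foxh1, the partner of Smad2 and Smad4 in Nodal signaling, had its nearest region 1525 bp from its start, a region of 960 bp listed under Ppp1r16a in a crowded part of chromosome 15 where 8 regions of other genes lay within 100 kb. Foxd1, a gene of kidney stroma, was 91072 bp from the closest region, at Ankra2.

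In the endoderm group Foxa2 had 4 regions, as many as Foxc1, and Foxa1, Foxa3, Foxe1 and Foxn1 had none. Foxa2 is needed for node, notochord, floor plate and definitive endoderm, and is annotated on the minus strand with 4 starts (chr2:147868613-147872705). The closest region (1190 bp, chr2:147873953-147875142) was centered 1842 bp upstream of the first start and did not cover it. Another lay 67984 bp upstream (820 bp, chr2:147940280-147941099). On the downstream side, 1 was centered 76716 bp away in an intron of the processed transcript 9030622O22Rik (955 bp, chr2:147794007-147794961), and the widest was 139239 bp away in intergenic sequence (1672 bp, chr2:147731126-147732797). That distal region was wider than 95.7% of the 6740 regions over 10 kb from a TSS. The nearest coding genes were far on both sides, Pax1 at 677 kb and Sstr4 at 348 kb, and all 4 regions had Foxa2 as their nearest coding start.

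Foxa1, the relative of Foxa2 in later endoderm, was 30104 bp from its nearest region, which lay in an exon of Ttc6. Foxa3, the hepatic and gut member, had no region of its own, but a region of 1162 bp at the start of Sympk was centered 874 bp from the Foxa3 start. Foxe1, a thyroid gene, and Foxn1, the gene of thymic epithelium, were 45802 and 63565 bp from theirs.

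Among ectoderm and neural genes, Foxi3 had 3 regions and Foxd3 had 1, and none of these 4 was within 10 kb of its TSS. Foxi3 acts in the ectoderm of the pharyngeal arches and the otic placode, a tissue that borders the dissected one. Its regions lay in intergenic sequence on the downstream side, at 10963 bp (1145 bp wide, chr6:70916991-70918135), 56528 bp (1228 bp, chr6:70962515-70963742) and 64943 bp (1150 bp, chr6:70970969-70972118). The 3 were similar in width, between 1145 and 1228 bp, and each was wider than 77.03 to 83.35% of the regions over 10 kb from a TSS. Foxd3, a neural crest and pluripotency gene, had a region of 891 bp (chr4:99125904-99126794) at 196641 bp upstream of its start. That region was nearer to the predicted coding gene Gm12689 (163758 bp), and the region nearest to Foxd3 was instead that at the start of Alg6, 59432 bp away.

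The remaining 7 genes of this group had none. Foxe3 has been described above, and the nearest regions of the other 6 were 60382 bp from Foxd4, 75302 bp from Foxi2, 82259 bp from Foxb2, 106862 bp from Foxn4, 228711 bp from Foxb1 and 276025 bp from Foxi1. Foxb1 and Foxb2 act in the neural tube and early ectoderm, Foxn4 in retina and spinal cord, and Foxi1 in the inner ear and kidney. Each of the last 3 genes in this series, Foxn4, Foxb1 and Foxi1, had no region of any gene within 100 kb.

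**Figure D2:**
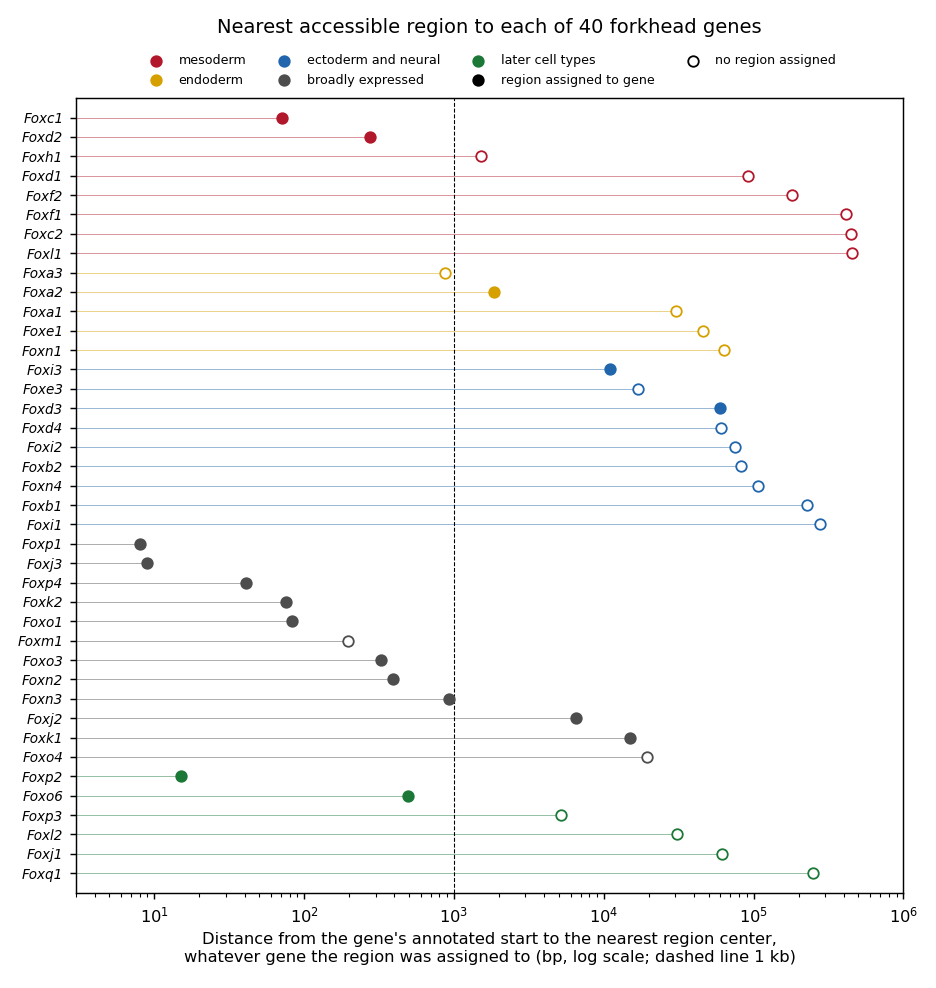
Distance in bp (log scale) from an annotated start of each of the 40 forkhead genes to the nearest region center, whatever gene that region was assigned to. Filled points had a region assigned to the gene, open points had none, and colors give the site of action. To the left of the dashed line at 1 kb lie 14 genes, while the 8 points beyond 100 kb are all open and include Foxf1, Foxc2 and Foxl1.

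The broadly expressed genes carried 18 of the 34 regions. FoxO genes encode the factors that insulin and Akt signaling exclude from the nucleus. Foxo3 had 1 region of 3200 bp (chr10:41995288-41998487), the widest of the family, which covered the start on the minus strand with its center 339 bp upstream. Of the 9083 regions within 1 kb of a TSS in the list, 47 were wider. Foxo1 had 1 region of 1187 bp at its start (chr3:52071583-52072769, center 83 bp upstream), narrower than the median of 1294 bp for such regions. Foxo4, on chromosome X, had none, and its nearest region was 19270 bp away at the start of Med12.

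Foxp1, Foxp2 and Foxp4 belong with Foxp3, which had no region, to a subfamily of leucine zipper repressors. Of these, Foxp1 is required for valve and outflow tract formation and Foxp4 is expressed in heart and foregut. Foxp1 (chr6:98875332-99216526, minus strand) had 3 regions. A region of 1408 bp (chr6:98977612-98979019) covered an annotated start inside the gene, with the center 23 bp from the assigned TSS. Another, of 832 bp (chr6:99080854-99081685), was in an intron 102977 bp upstream of that start, but 31743 bp downstream of the closest annotated Foxp1 start. The third, of 1691 bp (chr6:99472390-99474080), was listed at 2248 bp upstream of Foxp1, but by the annotation of the same genome its center was 256709 bp from the closest Foxp1 start and in an intron of Eif4e3. The deposited distance was thus measured from a start other than those of this annotation, at chr6:99470987. RefSeq sequences of GRCm38 hold a Foxp1 start at the same spacing from the start inside the gene. Its upstream bases are chr6:99520994-99521243 on the minus strand. Foxp4 had 1 region over its start (1718 bp, chr17:48060777-48062494, center 54 bp upstream) and 1 in an intron (908 bp, chr17:48035114-48036021).

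Foxp2, placed among genes of later cell types for its roles in brain and lung, had 1 region, of 3064 bp (chr6:14849803-14852866). It covered the TSS with its center 15 bp upstream, and 62 of 9083 such regions were wider. Its CpG frequency, 4.83 per 100 bp, was the lowest of the 10 promoter regions of the family. The gene extends over 541 kb, the longest of the family by the GENCODE annotation, and no other region was assigned to it. That annotation gives Foxp1 341 kb but does not hold the Foxp1 start at chr6:99470987. Measured from that start, Foxp1 would be longer than Foxp2. Foxo6, a FoxO gene of the brain, had 1 region near its start (1335 bp, chr4:119959783-119961117, center 584 bp upstream) and 1 in intergenic sequence 34558 bp downstream (1018 bp, chr4:119924800-119925817). The other genes of later cell types had none. Foxp3, the regulatory T cell gene, was 5143 bp from the nearest region, Foxl2, an ovarian gene, 30741 bp, and Foxj1, the gene of motile cilia, 61270 bp.

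Foxk1 and Foxk2 encode widely expressed repressors with a forkhead-associated domain, and Foxk1 is known from muscle progenitors. Foxk2 had 1 region of 1092 bp at its start (chr11:121120683-121121774, center 73 bp upstream). Foxk1 (chr5:142877451-142937968, plus strand) had 3 regions, and none of them was within 1 kb of its TSS. They lay at 221921 bp upstream in an intron of Sdk1 (1164 bp, chr5:142654949-142656112), at 33989 bp upstream in intergenic sequence (1234 bp, chr5:142842846-142844079) and at 14979 bp downstream in an intron of Foxk1 itself (1110 bp, chr5:142891876-142892985). A further Foxk1 intron held a region of 1630 bp (chr5:142915622-142917251) that was listed under Ap5z1. The pair therefore differed in the place of its regions, although the CpG frequency at the start was high in both, at 10.5 per 100 bp for Foxk1 and 15.8 for Foxk2.

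Foxn2 and Foxn3 are broadly expressed members linked to cell cycle checkpoints. Foxn2 had a region of 2294 bp over its start (chr17:88839360-88841653, center 454 bp downstream) and 1 of 1230 bp at 114482 bp upstream (chr17:88724956-88726185). Foxn3 (chr12:100433213-100688284, minus strand) had 2 intronic regions, of 2225 bp (chr12:100629976-100632200) and 1236 bp (chr12:100567394-100568629), listed at 57196 and 120273 bp downstream of the TSS. The wider was exceeded by 78 of 6740 regions over 10 kb from a TSS. It contained an annotated internal start of Foxn3, 919 bp from its center, so its large distance depends on which start is used.

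Foxj2 and Foxj3 are related activators. Foxj3 had 1 region of 1680 bp at its start (chr4:119211436-119213115, center 9 bp downstream), which also covered the start of AA415398 on the other side. Foxj2 (chr6:122769932-122795384) had 2 regions on its upstream side and none at the start. The wider, of 2092 bp (chr6:122760244-122762335), was centered 8913 bp upstream, and 76 of the 1341 regions between 1 and 10 kb from a TSS were wider. The other (1236 bp, chr6:122751044-122752279) was 18541 bp upstream. It covered a GENCODE start of Slc2a3, a glucose transporter gene, with its center 3 bp from that start. The list used another Slc2a3 start, since it gave a distance of -22337 bp for a region at chr6:122714160-122716040. An intronic region of Foxj2 (1252 bp, chr6:122775831-122777082), 6524 bp from its start, was listed under Mir7231. Foxm1, the activator of mitotic genes, had no region under its name, although a region of 1724 bp (chr6:128311929-128313652) listed under Rhno1 was centered 195 bp from a Foxm1 start.

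With any region counted, whatever gene it was listed under, 14 of the 40 genes (35%, interval 22.1 to 50.5%) had a region center within 1 kb of an annotated start, beside 44.4% of 22225 coding genes of the same annotation. The 4 genes added in this way were Foxa3, Foxd2, Foxm1 and Foxn3. For Foxn3 the region was listed under the gene itself, and it was added because an annotated internal start was used. Of the 34 regions of the family, 30 had the listed forkhead gene as their nearest coding gene, and 27 had a listed distance within 100 bp of that computed from the annotation.

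The regions of the family were more often distal than regions in general. Of the 34 regions, 10 (29.4%, interval 16.8 to 46.2%) lay within 1 kb of the TSS, compared with 52.9% of all regions. A further 3 (8.82%) lay at 1 to 10 kb, compared with 7.81%, and 21 (61.8%, interval 45.0 to 76.1%) lay over 10 kb away, compared with 39.3%. Of these 21, 14 were downstream (66.7%, compared with 55.1% of all regions over 10 kb away) and 7 upstream of the TSS. By the position of their centers, 11 were in introns, 10 in intergenic sequence and 0 in exons. Regions of the same gene share a locus and are not independent of each other, and 5 genes with 3 or 4 regions supplied 13 of the 21.

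Median widths were above those of the list in each class of distance. The 10 regions within 1 kb had a median of 1629.5 bp (interval of the median 1187 to 3064 bp, range 1092 to 3200 bp), compared with 1294 bp for all 9083. The 21 distal regions had a median of 1145 bp (interval 891 to 1230 bp, range 567 to 2225 bp), compared with 937 bp for all 6740. The intervals include both list medians. The 3 regions between, at Foxa2, Foxj2 and Foxp1, measured 1190, 2092 and 1691 bp, compared with a median of 1039 bp. A width of 2000 bp or more was reached by 5 of 34 regions (14.7%), at Foxo3, Foxp2, Foxn2, Foxn3 and Foxj2, compared with 6.57% of all regions.

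**Figure D3:**
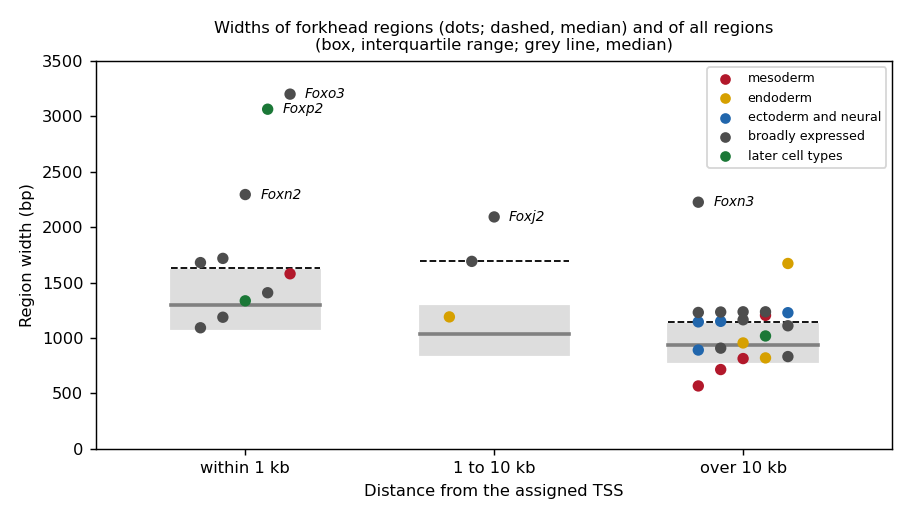
Region width in bp by distance from the assigned TSS, with 1 dot for each of the 34 forkhead regions colored by site of action and dashed lines at their medians. Grey boxes and lines give the interquartile range and median of all regions of the list in each class. The named dots are the 5 regions of 2000 bp or more, and the widest belong to Foxo3 (3200 bp) and Foxp2 (3064 bp).

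Within each class of distance, GC content and CpG frequency of the regions lay above those of the list, whereas over all classes the median CpG frequency was 3.58 per 100 bp beside 3.83. Median GC content of the 10 regions within 1 kb was 66.4%, beside 58.1% for all such regions, and the median CpG frequency was 9.30 beside 5.93 per 100 bp. Among the 21 distal regions the values were 50.2% beside 46.8% and 1.65 beside 1.25. The highest CpG frequencies among the distal regions were 8.04 in the Foxn3 region with an internal start and 6.97 in the Foxk1 region 33989 bp upstream. Next was 6.47 in the Foxj2 region over a GENCODE start of Slc2a3.

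CpG frequency was then measured at the starts themselves, within 500 bp on each side, for every gene and whether or not a region lay there. Forkhead genes had a median of 8.5 CpG dinucleotides per 100 bp, beside 4.70 for coding genes. The 10 genes with a region within 1 kb had a median of 11.9 (range 8.4 to 15.8), the 7 with regions elsewhere 9.4 (3.1 to 10.5) and the 23 with none 6.6 (1.5 to 11.2). The ranges overlap. In coding genes the share with a region at a start rose from 3.12% below 2 CpG dinucleotides per 100 bp to 71.1% between 6 and 8 and 75% at 8 or more. Forkhead genes with a region at a start were 0 of 2 below 2, 1 of 4 from 2 to 4 and 1 of 3 from 4 to 6. The shares of coding genes in these classes were 3.12%, 33.0% and 65.4%. In the class from 6 to 8, 0 of 10 forkhead genes had a region at a start, with a Wilson upper bound of 27.8%. The 10 were Foxa2, Foxb1, Foxc2, Foxd1, Foxe1, Foxe3, Foxj1, Foxl1, Foxn4 and Foxo4. At 8 or more, 12 of 21 had one (57.1%, interval 36.5 to 75.5%), and Foxa1, Foxd3, Foxf1, Foxf2, Foxi3, Foxj2, Foxk1, Foxl2 and Foxq1 did not. That interval includes the 75% of coding genes, and no class was tested.

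**Figure D4:**
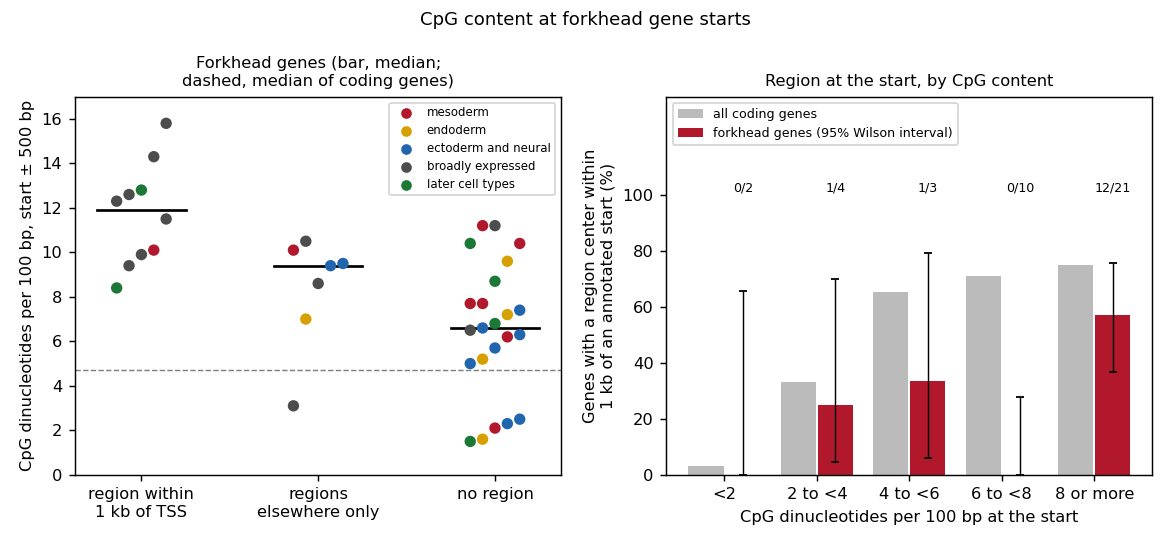
Left, the highest CpG frequency (dinucleotides per 100 bp) within 500 bp of a start for each of the 40 forkhead genes, by the place of their regions, with bars at the medians of 11.9, 9.4 and 6.6 and a dashed line at 4.70 for coding genes. Right, the percentage of genes with a region center within 1 kb of a start in classes of that frequency, for all coding genes (grey) and forkhead genes (red, with 95% Wilson intervals and counts above), where 0 of 10 forkhead genes had one between 6 and 8.

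Gene length went along with the same grouping. The 10 genes with a region within 1 kb had a median length of 69.6 kb, and 9 of them exceeded 15 kb, the exception being Foxc1. The 7 with regions elsewhere had a median of 4.54 kb and the 23 with none 3.23 kb, and 17 of the 23 were shorter than 6 kb. Long, multi-exon members are largely the broadly expressed ones, so that length, CpG frequency and site of action cannot be told apart among these 40 genes.

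Sequence motifs were searched on both strands in the central 300 bp of the distal regions. The forkhead consensus GTAAACA was present in 1 of the 21 regions (4.76%, interval 0.846 to 22.7%), beside 6.01% of all 6740 distal regions. CTAATG, the core bound by Isl1, was present in 1 (4.76%), beside 12.0%, and AGATAA, bound by GATA factors, in 2 (9.52%), beside 15.6%. Over whole regions of every class, the forkhead letters occurred in 8 of 34 (23.5%), beside 13.8% of all regions, those of Isl1 in 5 (14.7%), beside 26.9%, and those of GATA in 13 (38.2%), beside 35.8%. The family's regions differ in width from the list, and a wider region has more room for a match. A match is a run of letters and not a binding site.

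Examples of matches in distal regions, chosen after the matches were seen, are shown in place. In the Foxa2 region 139239 bp downstream, CTAATG and TGTTTAC, the forkhead letters read on the other strand, lay within the same 100 bases. Both were outside its central 300 bp, so they are not among the central matches counted above. The Foxn3 region of 1236 bp had the Isl1 letters as CTAATG and again as CATTAG on the opposite strand, and was the 1 distal region with those letters in its central 300 bp. The Foxk1 intron region had both TTATCT, the GATA letters on the other strand, and GTAAACA near its center. Matches are in capitals, with 30 bases of flank, from 5′ to 3′ in mm9.
Foxa2, chr2:147732211-147732310, + strand: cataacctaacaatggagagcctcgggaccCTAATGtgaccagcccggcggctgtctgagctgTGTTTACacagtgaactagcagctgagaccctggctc
Foxn3, chr12:100568013-100568173, + strand: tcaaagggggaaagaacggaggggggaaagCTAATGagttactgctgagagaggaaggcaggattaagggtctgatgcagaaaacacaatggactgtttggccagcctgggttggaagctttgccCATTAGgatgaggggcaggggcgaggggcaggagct
Foxk1, chr5:142892326-142892440, + strand: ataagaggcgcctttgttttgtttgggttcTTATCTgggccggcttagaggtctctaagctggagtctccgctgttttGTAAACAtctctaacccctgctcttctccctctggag

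Pathway partners of the family were examined by the same count. Of 18 genes of the insulin and Akt pathway that controls FoxO proteins, 14 had a region (77.8%, interval 54.8 to 91.0%, beside 49.3% of coding genes). A region within 1 kb of the TSS was found for 13 (72.2%, interval 49.1 to 87.5%, beside 40.6%), among them Insr, Igf1r, Irs1, Irs2, Akt2 and Sgk1. Neither difference was tested, and the list was chosen with earlier results of these data known. Akt1, Pik3ca, Ep300 and Skp2 had none. Of 15 genes of the Nodal pathway that Foxh1 serves, 8 had a region (53.3%, interval 30.1 to 75.2%), close to the 49.3% of coding genes. All 8 had it within 1 kb, where the share of coding genes was 40.6%, a value inside the same interval. Among the 8 were the receptor genes Acvr1b, Acvr2a and Acvr2b, the effectors Smad2, Smad3 and Smad4, and the ligand gene Gdf1. The early ligands, coreceptors and targets Nodal, Gdf3, Cfc1, Tdgf1, Lefty1, Lefty2 and Mixl1 had none.

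As a comparison, 8 of 17 T-box genes (47.1%) and 12 of 19 Sox genes (63.2%) had a region, beside 42.5% of forkhead genes. A region within 1 kb was found for 7 genes of each of these families, or 41.2% and 36.8%, beside 25%. Those with a region had 2.25 regions per gene among T-box and 2.33 among Sox genes, beside 2 among forkhead genes, and 44.4% and 57.1% of these regions were over 10 kb from the TSS, beside 61.8%. The Wilson intervals of the shares with a region, 26.2 to 69.0% for T-box and 41.0 to 80.9% for Sox genes, overlap that of the forkhead genes, and the differences were not tested.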

How the data were processed

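ATAC-Seq libraries were prepared by the authors, 3 per genotype, and samples were grouped by genotype label. According to the study's methods, reads were mapped to mm9 with bowtie2, duplicates were removed with Picard 1.136, and peaks were called by MACS14 without a model at a shift size of 100 bp. ENCODE blacklisted peaks were discarded, and regions shared by the control libraries (overlap of at least 1 bp) were found with bedtools 2.15. The methods name the option intersect -wa and describe no merging of edges, so a width may be that of a peak in 1 library. The deposited values are positions and distances to the TSS in bp, and the tool that assigned genes is not given in the sources used here. A fixed shift widens regions, no Tn5 offset is stated, and a gene without a region need not be closed. In total 0 value columns were left unmapped.

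Here, positions were read as 1-based, identical regions were counted once, and starts, exons and sequence came from NCBIM37 (mm9) with its GENCODE annotation. Coding genes were those of the RefSeq gene table. Of 11541 listed genes, 11161 matched it by accession, 359 by symbol, 15 by synonym and 6 not at all. Place was read at region midpoints, and CpG frequency was the highest over a gene's starts. Intervals of medians were taken from order statistics. No significance test was run. Genes described in full had 3 or more regions, a region of at least 2000 bp, or regions but none within 1 kb. The members, lists and site-of-action groups were chosen with earlier results of these data known, and some genes of the pathway lists are not reported here by name. Scripts (Python 3.11.15, numpy 2.4.6, pandas 2.3.3, scipy 1.17.1, pysam 0.24.0) were tested on simulated data.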

Additional observations from a re-analysis of the deposited data

How the results depend on the processing

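Of 25 recomputed values, 24 stayed within 1.5 times the count reported or within its interval or SD, and 8 of the 25 were chosen after seeing the data. The exception was the forkhead motif in distal regions, found in 28.6% of them with the 6 letters TAAACA, which lie inside GTAAACA and match more often by construction (19.7% of all distal regions). With regions of at least the median width, 14 genes and 23 regions were left and 47.8% were distal. By the nearest GENCODE coding start, 16 genes had 37 regions, without Foxd3. Between 9 and 14 genes had a region near the TSS over windows of 500 to 2000 bp and any listed gene. Without the region at the GENCODE start of Slc2a3, 60.6% of 33 regions were distal. No paired analysis was possible because the list is 1 consensus without replicate values, and for the same reason no library could be left out. Depth is unknown and limits both the widths and the count of genes with a region.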
